A study of Mus musculus with 7 samples.

Results

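Cornified envelope genes encode the precursors, crosslinking enzymes and shedding proteases of the protein shell that squamous cells lay down under their membrane as they differentiate. The set described here was chosen by symbol: 14 small proline-rich (SPRR) genes, 11 genes for other envelope and associated proteins, 3 transglutaminases, corneodesmosin with 4 kallikreins, and the differentiation markers Rhcg and Calml3, 35 in all. The deposited table of 24047 gene names holds 34 of them, and Flg was not analysed here. A total of 27 passed the filter on low counts and were tested, among 13768 genes tested in all.

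The samples were 7 cultured mouse esophageal epithelial cell lines of mixed strain background, each sequenced as one library of polyadenylated RNA. Of these, 3 lines carried the missense allele p53R172H and the treatment label 4NQO (mutant 1, 2 and 3), 2 were p53 -/- with the same label (null 1 and null 3), and 2 were wild type without it (WT 1 and WT 2). 4NQO is the short name of 4-nitroquinoline 1-oxide, a carcinogen of the mouth and esophagus. All lines were grown on plastic in KSFM, a serum-free keratinocyte medium, and nothing in the labels ties lines of a group to different animals. The p-values therefore measure only the spread between these lines. Genotype and the 4NQO label cannot be told apart in comparisons with WT.

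In the mouse esophagus, as in the epidermis, basal cells divide and their daughters move outward while they switch on envelope precursors. Transglutaminases then join glutamine and lysine side chains of involucrin, plakins, loricrin and SPRR proteins into an insoluble layer, with the SPRR proteins acting as short bridges between larger partners. Kallikreins cut the corneodesmosin that holds the outermost cells together. Many of these genes lie close together in the epidermal differentiation complex, which is on chromosome 3 in the mouse.

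Libraries held 12751118 (WT 2) to 47000225 (mutant 1) counts. The targeted gene Trp53 averaged 225 ± 46.3 CPM (counts scaled to a common library size by the trimmed mean of M values, TMM) in mutant lines (n = 3), 6.72 ± 2.85 CPM in null lines (n = 2) and 202 ± 13.4 CPM in WT lines (n = 2, all SD). All 13 epithelial markers examined were detected, and their summed level was 9190 to 12785 CPM in mutant, 8945 and 12613 CPM in null and 31814 and 41612 CPM in WT lines. The WT sums were mostly Krt5 (13826 and 21396 CPM) and Krt14 (11359 and 14406 CPM). Trp63 and Krt18 in mutant lines overlapped WT, and Itga6 was above it, at 1083, 1870 and 1269 CPM against 811 and 944 CPM. The log2 fold change of mutant against WT lines was below 0 for 11 of the 13 markers and above 0 for 2. At an edgeR adjusted p under 0.05, Krt5 and Epcam were lower (0.0289 and 0.0495) and 0 were higher. That is 15.4% of the markers lower, against 4.13% of all tested genes. Epcam was at 175, 70.1 and 55.0 CPM in mutant, 353 and 388 CPM in null and 454 and 386 CPM in WT lines. Cdh1, Cldn1, Cldn4, Itgb4 and Krt14 were also below WT in every mutant library, but above that threshold. Summed over 12 fibroblast markers, mutant 1, mutant 3 and null 3 stood at 939, 423 and 597 CPM, while mutant 2, null 1 and both WT lines stood at 5.85 to 10.5 CPM. Of the 12, Col3a1 was at 148, 183 and 276 CPM and Pdgfrb at 24.3, 17.1 and 60.0 CPM in mutant 1, mutant 3 and null 3, Postn was at 293 and 58.0 CPM in mutant 1 and null 3 but 0.115 CPM in mutant 3, and Lum and Thy1 were at most 0.0203 and 0.494 CPM in any line. Null 3 also had 127 CPM over 9 muscle markers, including Myod1 at 23.0 and Myog at 29.0 CPM, against 0.941 to 23.3 CPM in the other 6 lines. Actc1, Des, Myh3 and Tnnt3 were also far above the other lines in null 3. Its Acta1, at 23.4 CPM, was close to WT 2, and Acta1 made up most of the WT sums (12.4 and 22.2 CPM). Ckm was at 0 in null 3, and Myh11, at 0.380 CPM, was below null 1 at 0.456 CPM. Endothelial and leukocyte markers summed to at most 2.16 and 0.835 CPM. The part of these marker differences in the results below was not tested. In RNA from whole cultures, fewer differentiating cells and less RNA per cell cannot be told apart.

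The SPRR promoters are shown first, because SPRR2 genes had the 4 largest fitted fold changes among the 27 genes in mutant against WT. Promoter windows of 250 bases before to 50 bases after the annotated start were available from RefSeq (build GRCm38.p6) for 31 of the 35 genes, 34 windows in all. There was no window for Sprr2g, whose fold change is among those 4, nor for Ppl, Evpl and Calml3. The windows of Sprr2d, Sprr2f and Sprr2h belong to genes that fell in mutant lines. Sprr2k is the SPRR2 gene with its lowest group mean in null lines, although its null and mutant ranges overlapped. Sprr1b and Sprr3 are SPRR genes outside the SPRR2 group, of which Sprr3 fell in mutant lines and Sprr1b was not called. Sequences run 5′ to 3′ on the gene's strand, and capitals mark matches, on either strand, to the letters of an AP-1 site (TGANTCA), an octamer (ATGCAAAT) and a TATA box (TATAAA).
Sprr2d, chr3:92338890-92339189, plus strand: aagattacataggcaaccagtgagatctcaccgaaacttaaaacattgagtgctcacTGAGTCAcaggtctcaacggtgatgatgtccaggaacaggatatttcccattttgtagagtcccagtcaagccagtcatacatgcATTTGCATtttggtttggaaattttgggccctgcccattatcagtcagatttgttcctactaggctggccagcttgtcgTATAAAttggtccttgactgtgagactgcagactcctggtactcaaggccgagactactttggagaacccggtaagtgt
Sprr2f, chr3:92364937-92365236, plus strand: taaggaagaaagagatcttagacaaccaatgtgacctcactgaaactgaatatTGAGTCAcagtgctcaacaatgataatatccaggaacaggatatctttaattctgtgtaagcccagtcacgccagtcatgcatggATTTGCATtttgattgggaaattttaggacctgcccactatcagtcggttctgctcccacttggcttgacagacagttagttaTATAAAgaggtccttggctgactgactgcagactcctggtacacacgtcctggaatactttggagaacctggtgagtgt
Sprr2h, chr3:92385435-92385734, plus strand: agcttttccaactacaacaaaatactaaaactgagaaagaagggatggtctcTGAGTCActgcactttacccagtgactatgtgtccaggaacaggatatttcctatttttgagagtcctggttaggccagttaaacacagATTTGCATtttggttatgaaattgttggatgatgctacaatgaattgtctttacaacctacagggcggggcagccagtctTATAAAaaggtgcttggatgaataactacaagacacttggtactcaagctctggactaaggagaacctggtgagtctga
Sprr2k, chr3:92432332-92432631, plus strand: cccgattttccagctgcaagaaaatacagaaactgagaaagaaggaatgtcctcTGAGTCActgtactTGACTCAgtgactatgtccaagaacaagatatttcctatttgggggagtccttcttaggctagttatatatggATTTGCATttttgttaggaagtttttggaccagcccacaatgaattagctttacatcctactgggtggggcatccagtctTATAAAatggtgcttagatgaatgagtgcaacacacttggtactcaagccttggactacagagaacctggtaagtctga
Sprr1b, chr3:92438730-92439029, minus strand: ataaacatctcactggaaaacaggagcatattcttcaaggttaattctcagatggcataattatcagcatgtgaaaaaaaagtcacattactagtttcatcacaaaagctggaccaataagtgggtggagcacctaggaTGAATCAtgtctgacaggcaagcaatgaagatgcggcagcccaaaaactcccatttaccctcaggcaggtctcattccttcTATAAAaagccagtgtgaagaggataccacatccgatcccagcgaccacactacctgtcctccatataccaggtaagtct
Sprr3, chr3:92458671-92458970, minus strand: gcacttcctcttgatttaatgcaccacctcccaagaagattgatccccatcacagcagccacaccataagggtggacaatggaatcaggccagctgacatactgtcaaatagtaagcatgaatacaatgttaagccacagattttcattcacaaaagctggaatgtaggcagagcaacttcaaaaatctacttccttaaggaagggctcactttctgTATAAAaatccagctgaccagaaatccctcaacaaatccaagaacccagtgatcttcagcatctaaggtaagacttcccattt

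All 3 motifs stood in 7 of the 9 SPRR2 windows (Sprr2b, Sprr2d, Sprr2e, Sprr2f, Sprr2h, Sprr2i and Sprr2k). Among them the first matched base of AP-1 was at -198 to -182 from the start, that of the octamer at -112 to -108 and that of TATA at -29 in each. Because SPRR2 genes are close copies, these 7 windows do not count as independent. Their identity without gaps ran from 27.7% (Sprr2f and Sprr2k) to 88% (Sprr2d and Sprr2e). Over all 32851 windows of the table, 16 held all 3 motifs, 7.81% held AP-1, 1.74% held the octamer and 13.6% held TATA. Of the 34 windows of the gene set, 50% held AP-1, 20.6% the octamer and 50% TATA, and no window outside the SPRR2 genes held the octamer. The other motifs searched were GRHL (AACCNGTT, 2.94% of the set's windows against 2.09% of all), KLF (GGGNGTGG, 11.8% against 17.6%), C/EBP (TTGCNNAA, 23.5% against 10.8%), TEAD (GGAATG, 11.8% against 14.7%), ETS (GGAAGT, 26.5% against 23.8%) and the interferon-stimulated response element ISRE (5.88% against 3.44%). Both strands were searched and matches of different motifs could overlap. These matches are letters in a window and do not show that a factor binds there.

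**Figure D1:**
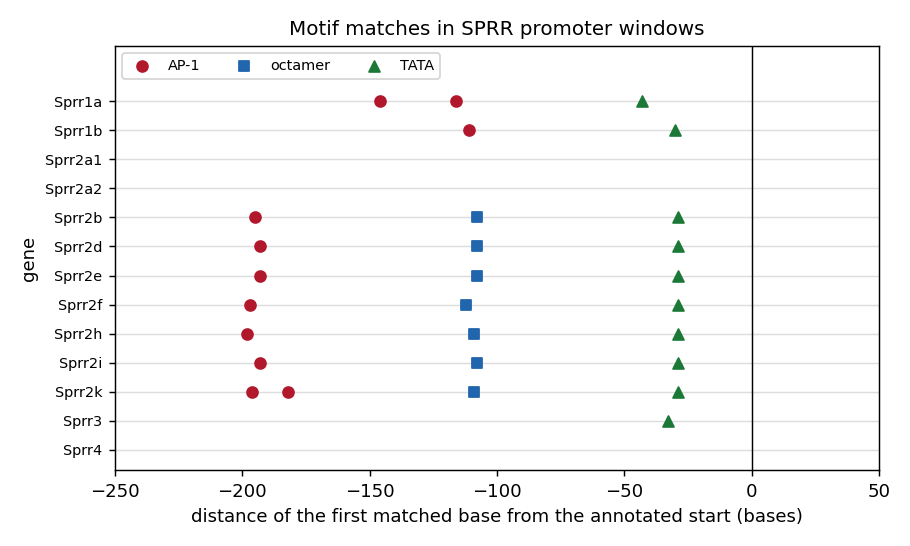
Positions of AP-1, octamer and TATA matches in 13 SPRR promoter windows. The horizontal axis is the distance in bases of the first matched base from the annotated start, each row is a gene, and 7 SPRR2 rows share the order AP-1, octamer, TATA while Sprr2a1, Sprr2a2 and Sprr4 have no match.

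SPRR2 genes are close copies, so reads may be split between them. Of the 50-base stretches in the GENCODE vM21 transcripts of each gene, 96.3% for Sprr2a1 and 96.5% for Sprr2a2 also occur in transcripts of another gene. The share was 14.1% for Sprr2b, 12.5% for Sprr2i, 10.2% for Sprr2e, 4.27% for Sprr2d, 0.714% for Sprr2f and 0% for Sprr2g, Sprr2h and Sprr2k. Sprr2a1 and Sprr2a2 are listed at 0 in all 7 libraries, and given these shares that value does not bear on whether they are expressed. Outside the SPRR genes, 6.96% of the stretches of Sbsn also occur in Tmem147os.

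The first comparison asks how envelope genes in mutant lines differ from those in WT lines. Of the 27 tested genes, 12 fell in mutant lines and 0 rose (44.4% lower, where 4.13% of all tested genes were called lower and 3.3% higher; edgeR quasi-likelihood test, adjusted p under 0.05). The falling genes were 6 of 11 tested SPRR genes, 4 of 9 other envelope and associated genes, 2 of 3 transglutaminases and 0 of 4 genes of corneodesmosin and kallikreins. The median log2 fold change was -3.05 over the 27 genes and 0.08 over all genes tested. In 21 of the 27 genes every mutant library was below every WT library, and in 1, Ecm1, every mutant library was above (25.7% and 26.9% of all tested genes). Of the 27 genes, 9 did not reach the filter in mutant lines and were tested because other lines expressed them, against 7.49% of all tested genes, so a low mutant level was built into their being tested. These 9 supplied 6 of the 12 calls (Sprr2d, Sprr2e, Sprr2f, Sprr2g, Tgm3 and Tgm5), and the other 6 were among the 18 genes that passed on mutant lines alone. The shares above therefore describe the set and are not support for it. DESeq2 gave an adjusted p for 26 of the genes and called 17 lower, the same 12 with Sprr1a, Sprr2i, Sprr2k, Ivl and Tgm1, where it called 11.1% of all genes lower. Leaving out 1 line changed the count: 0 of the set were called without WT 1, without WT 2 or without mutant 3, and 1, Sprr2f, without mutant 2, whereas 14 were called without mutant 1. Of all tested genes, 0% were called lower without WT 1, 0% without WT 2, 0.022% without mutant 3, 0.117% without mutant 2 and 5.93% without mutant 1. All 12 fold changes stayed below 0 in each of 12 alternative settings, with adjusted p between 9.52e-18 and 0.23.

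**Figure D2:**
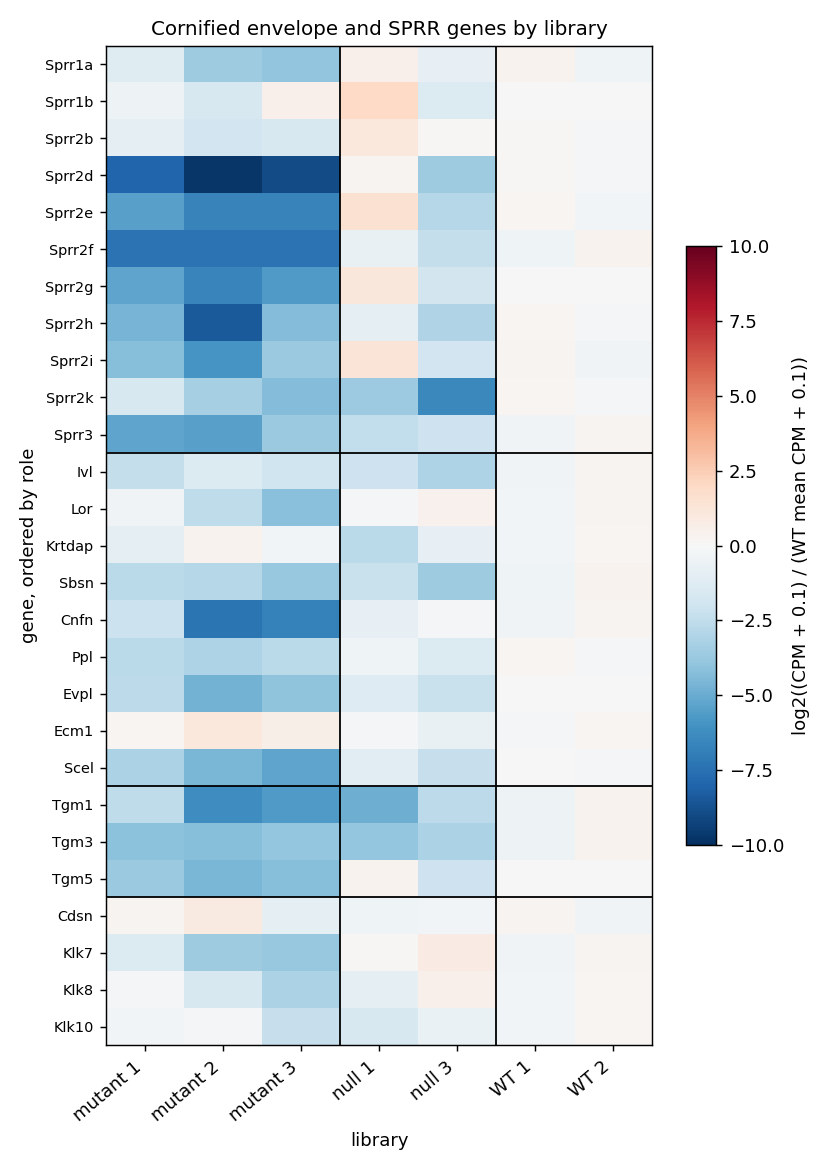
Heat map of the 27 tested genes (rows, ordered by role with lines between roles) in the 7 libraries (columns). Colour is the log2 ratio of CPM + 0.1 to the WT mean + 0.1, and the 3 mutant columns have medians of -2.54, -3.59 and -3.90 over the genes, against -0.73 for null 1 and -1.90 for null 3.

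Among the SPRR genes, Sprr2d was at 0.325, 0.0237 and 0.115 CPM in mutant 1, 2 and 3, at 124 and 9.0 CPM in null 1 and null 3, and at 111 and 98.7 CPM in WT 1 and WT 2. The mutant libraries were far below all others, and null 1 was above both WT libraries while null 3 was below them. Its log2 fold change in mutant against WT was -9.32 (SE 1.33, edgeR adjusted p = 0.0230). Such fitted values depend on the prior count where a group is close to 0.

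Sprr2f had a single count in each mutant library, 0.0203, 0.0237 and 0.0229 CPM, against 12.3 and 3.91 CPM in null and 15.0 and 25.9 CPM in WT libraries. All 3 groups were separate, with mutant lowest and WT highest. The ratio of pooled counts, 3 in mutant over 760 in WT lines after scaling for depth, was 0.00122 (exact 95% interval 0.000251 to 0.00358, counting error only). It had the smallest adjusted p of the set in mutant against WT (0.0081, log2 fold change -9.62, SE 0.739).

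Sprr2e had 7 counts in mutant 1 (0.142 CPM) and 0 counts in mutant 2 and mutant 3, which allows levels of up to 0.0712 and 0.0688 CPM there. In null lines it was at 29.0 and 1.33 CPM and in WT lines at 12.04 and 8.44 CPM. The pooled ratio of mutant to WT was 0.00473 (exact 95% interval 0.00189 to 0.00982, counting error only), with an edgeR adjusted p of 0.0495. The 10.2% of its 50-base stretches that are shared occur in Sprr2d, Sprr2f and Sprr2i.

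Sprr2g, which shares no 50-base stretch with another gene, was at 0.264, 0.0475 and 0.184 CPM in mutant, 30.1 and 3.91 CPM in null and 13.8 and 14.2 CPM in WT libraries. Mutant libraries were again the lowest, and the null pair stood on either side of the WT pair. The log2 fold change in mutant against WT was -6.36 (SE 1.02, edgeR adjusted p = 0.0270).

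Sprr2h, equally free of shared stretches, kept a higher remainder at 4.56, 0.237 and 5.64 CPM in mutant 1, 2 and 3, against 60.0 and 13.8 CPM in null and 128 and 101 CPM in WT lines. The groups did not overlap and mutant 2 was the lowest library. The call was at the threshold, at -5.03 on the log2 scale (SE 1.16, edgeR adjusted p = 0.05 after rounding from below). It was lost with another scaling, relative log expression, which called 11 of the set lower, against 4.34% of all genes.

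Sprr3, an SPRR gene known for its high expression in esophagus, was at 0.549, 0.475 and 1.84 CPM in mutant, 4.53 and 5.88 CPM in null and 19.8 and 30.0 CPM in WT lines. The 3 groups were separate in the order mutant, null, WT. It fell in mutant against WT by 4.70 on the log2 scale (SE 0.675, edgeR adjusted p = 0.0231).

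**Figure D3:**
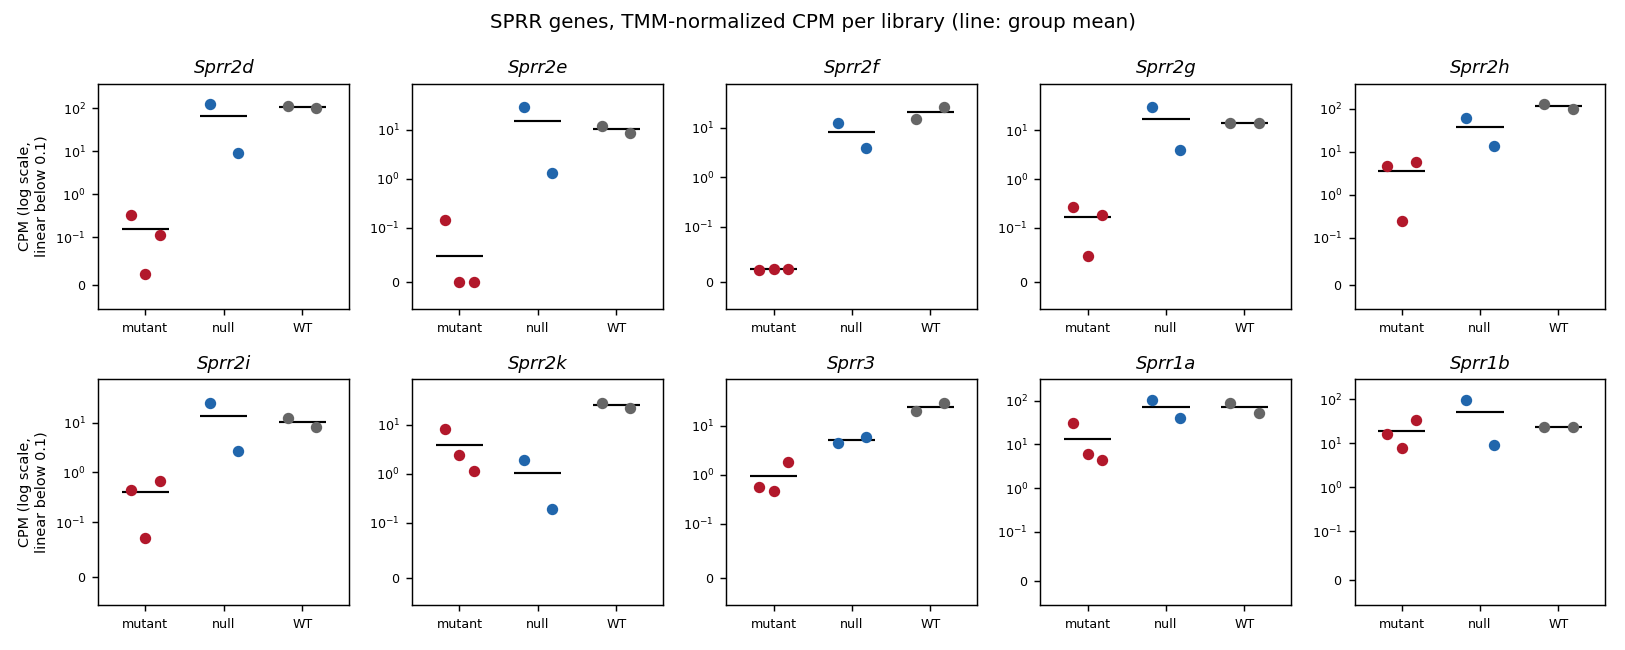
Levels of 10 SPRR genes in TMM-normalized CPM (vertical axis, log scale above 0.1 and linear below) in mutant, null and WT lines. Each point is a library and each line a group mean; the 3 mutant points lie below all other points in Sprr2d, Sprr2e, Sprr2f, Sprr2g, Sprr2h, Sprr2i, Sprr3 and Sprr1a.

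Not every SPRR gene followed this pattern. Sprr1b was at 16.8, 7.81 and 33.4 CPM in mutant, 94.97 and 9.0 CPM in null and 23.3 and 23.7 CPM in WT lines, with overlapping groups (log2 change -0.28, SE 0.935, adjusted p = 0.86 in mutant against WT). Its neighbour Sprr1a, which encodes a related crosslinking substrate, was at 30.5, 5.96 and 4.34 CPM in mutant, 102 and 39.4 CPM in null and 88.9 and 51.3 CPM in WT lines. Mutant 1 held most of what remained, and edgeR did not call the gene (-2.37, SE 0.875, adjusted p = 0.128), but called it without mutant 1 (adjusted p = 0.0257), as did DESeq2 with all lines (adjusted p = 0.0155).

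Sprr2k differed from the other SPRR2 genes in its null values, with 8.24, 2.40 and 1.15 CPM in mutant, 1.92 and 0.190 CPM in null and 27.6 and 21.6 CPM in WT lines. The null and mutant ranges overlapped and both were below WT. edgeR called no comparison (adjusted p = 0.145 in mutant against WT and 0.155 in null against WT), whereas DESeq2 called it lower in both (adjusted p = 0.0348 and 0.00114). Sprr2i had 0.0712 to 0.688 CPM in mutant, 25.0 and 2.70 CPM in null and 12.5 and 8.20 CPM in WT lines, and missed the threshold in edgeR (adjusted p = 0.0569). It was called lower by DESeq2 (adjusted p = 0.000107) and by edgeR in its newer form, with no filter and without either null line (adjusted p = 0.029 to 0.0428). Sprr2b was at most 0.669 CPM in any line and was not called, and Sprr4 had 1 count in all, in null 1.

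The plakins Ppl and Evpl, periplakin and envoplakin, form with involucrin the first layer of the envelope beneath the membrane. Ppl was at 53.3, 41.0 and 54.7 CPM in mutant, 253 and 134 CPM in null and 398 and 297 CPM in WT lines. It held a narrow range in mutant lines and the 3 groups did not overlap. Mutant against WT gave -2.81 on the log2 scale (SE 0.304, edgeR adjusted p = 0.0192), the smallest standard error among the 12 called genes.

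Evpl was at 22.6, 5.24 and 8.76 CPM in mutant, 56.0 and 30.1 CPM in null and 138 and 142 CPM in WT lines. Its groups were also separate, in the same order. It fell in mutant lines by 3.52 on the log2 scale (SE 0.612, edgeR adjusted p = 0.0307).

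Ivl, the involucrin scaffold, was at 4.70, 9.80 and 6.33 CPM in mutant, 5.99 and 2.96 CPM in null and 19.8 and 31.2 CPM in WT lines. Mutant and null ranges overlapped and both lay below WT. The log2 fold changes of -1.88 in mutant against WT and -2.51 in null against WT were not called by edgeR (SE 0.460 and 0.538, adjusted p = 0.0576 and 0.11) and were called by DESeq2 (adjusted p = 0.00192 and 0.000357). In mutant against WT, edgeR also called Ivl in its newer form (adjusted p = 0.0471) and without null 1 or null 3 (adjusted p = 0.0479 and 0.0435). Ivl thus had a lower mean in null than in mutant lines, at 4.48 ± 2.15 CPM (SD, n = 2) and 6.94 ± 2.61 CPM (SD, n = 3), but these groups overlapped.

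Scel, which encodes the envelope precursor sciellin, was at 1.02, 0.308 and 0.161 CPM in mutant, 4.66 and 1.90 CPM in null and 10.3 and 9.26 CPM in WT lines, and fell in mutant against WT (-4.29, SE 0.865, adjusted p = 0.0387). Sbsn, suprabasin, a secreted protein of suprabasal cells, was at 25.0, 22.6 and 11.8 CPM in mutant, 35.3 and 13.9 CPM in null and 124 and 205 CPM in WT lines. It fell in mutant lines (-3.05, SE 0.493, adjusted p = 0.0272), and here the null libraries sat within or just above the mutant range.

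Cnfn, cornifelin, was at 3.60, 0 and 0.0459 CPM in mutant, 9.07 and 14.8 CPM in null and 12.5 and 19.4 CPM in WT lines. The mutant mean rested on mutant 1, and the gene was called in mutant against WT when that line was left out but not with it (adjusted p = 0.216). Lor, loricrin, the main bulk protein of the epidermal envelope, was at 3.54, 0.712 and 0.161 CPM in mutant, 4.02 and 6.07 CPM in null and 3.67 and 5.44 CPM in WT lines, with no call (adjusted p = 0.346). Krtdap, a small secreted protein of differentiating keratinocytes, ranged over 1.28 to 3.23 CPM in mutant, 0.304 and 1.40 CPM in null and 2.08 and 3.00 CPM in WT lines. Crnn, cornulin, an abundant protein of human esophagus, had at most 0.456 CPM in any line and was not tested.

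Ecm1, the secreted extracellular matrix protein 1, was with Cdsn 1 of 2 tested genes whose log2 fold change in mutant against WT was above 0. It was at 411, 710.4 and 523 CPM in mutant, 299.7 and 212 CPM in null and 310.1 and 392 CPM in WT lines. Every mutant library was above WT and both null libraries were below it. edgeR called none of the differences: the log2 values were 0.64 in mutant against WT (SE 0.287, adjusted p = 0.185), -0.46 in null against WT (SE 0.310, adjusted p = 0.427) and 1.10 in mutant against null (SE 0.292, adjusted p = 0.278). DESeq2 called it higher in mutant against null (adjusted p = 0.0082).

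**Figure D4:**
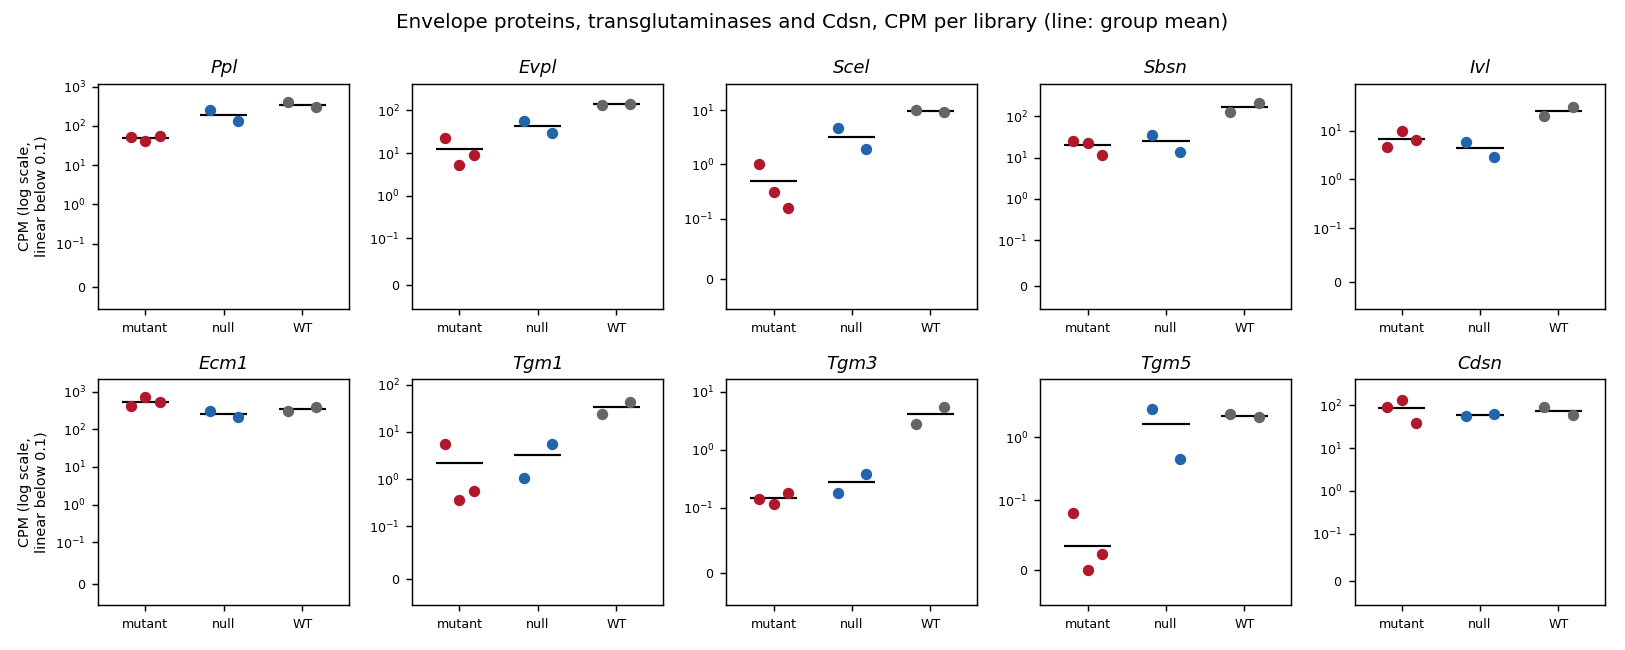
Levels of 6 called genes (Ppl, Evpl, Scel, Sbsn, Tgm3 and Tgm5) and 4 uncalled genes (Ivl, Ecm1, Tgm1 and Cdsn) for envelope proteins, transglutaminases and corneodesmosin, in TMM-normalized CPM (vertical axis, log scale above 0.1 and linear below), in mutant, null and WT lines. Points are libraries and lines group means; all mutant points lie below the WT points except in Ecm1 and Cdsn.

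The transglutaminases catalyse the crosslinks. Tgm3, a form activated by proteolysis during late differentiation, was at 0.142, 0.119 and 0.184 CPM in mutant, 0.183 and 0.380 CPM in null and 2.82 and 5.44 CPM in WT lines. All 5 lines with the 4NQO label were at or below 0.380 CPM, and both WT lines were above that. It fell in mutant against WT (-4.76, SE 0.686, adjusted p = 0.0231), and the null value of -3.86 (SE 0.781) had an adjusted p of 0.101.

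Tgm5 was at 0.0814, 0 and 0.0229 CPM in mutant, 2.80 and 0.456 CPM in null and 2.35 and 2.11 CPM in WT lines, so null 1 kept a WT level. The pooled ratio of mutant to WT, from 5 and 95 counts, was 0.0163 (exact 95% interval 0.00517 to 0.0393, counting error only), and edgeR gave an adjusted p of 0.0463. Tgm1, the membrane-anchored enzyme of the family, was at 5.67, 0.356 and 0.551 CPM in mutant, 1.03 and 5.43 CPM in null and 23.6 and 43.5 CPM in WT lines. All mutant and null libraries were below both WT libraries, and edgeR called neither comparison with WT (adjusted p = 0.101 for mutant and 0.262 for null). In mutant against WT, DESeq2 called Tgm1 lower (adjusted p = 0.00387), as did edgeR without mutant 1 (adjusted p = 0.0262).

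None of the genes of cell shedding was called by edgeR with all lines. Cdsn, corneodesmosin, was at 89.8, 134 and 38.7 CPM in mutant, 56.2 and 62.1 CPM in null and 88.8 and 58.6 CPM in WT lines, with overlapping groups (log2 fold change 0.25, SE 0.480, adjusted p = 0.748 in mutant against WT). The kallikrein Klk10 was at 20.8, 21.7 and 5.0 CPM in mutant, 8.31 and 15.3 CPM in null and 21.0 and 28.6 CPM in WT lines, and the trypsin-like Klk8 at 15.3, 5.27 and 1.77 CPM in mutant, 8.49 and 24.1 CPM in null and 14.0 and 19.1 CPM in WT lines. Mutant libraries overlapped WT in both genes, and both null libraries were below WT in Klk10 only. Klk7, a chymotrypsin-like protease that cuts corneodesmosin, was at 0.0459 to 0.692 CPM in mutant, 2.16 and 3.49 CPM in null and 1.497 and 2.44 CPM in WT lines (edgeR adjusted p = 0.154 in mutant against WT, and 0.0257 without mutant 1). The ammonium transporter gene Rhcg had 1 count in all 7 libraries, in mutant 2. Calml3, a calmodulin-like protein of epithelia, had 0 counts in mutant lines, 6 in null and 8 in WT lines, and was not tested. With a floor of 3 counts over the mutant lines, mutant was 8.62-fold below WT. That value takes the 8 WT counts as exact, so the difference may be smaller.

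The second comparison sets null lines against WT lines. None of the 27 genes was called by edgeR, where 0.138% of all tested genes were, and 7 had an unadjusted p under 0.05, all lower (25.9%, against 9.01% of all tested genes): Sprr2k, Sprr3, Ivl, Sbsn, Tgm3, Ppl and Evpl. Sprr2k and Tgm3 did not pass the filter on null lines, so a low null level was built into their being tested. The shares in this comparison are a description only. DESeq2 called 5 of the set lower (Sprr2k, Sprr3, Ivl, Sbsn and Tgm3), against 4.92% of all genes lower by that test. In 14 of the 27 genes both null libraries were below both WT libraries, and in 0 both were above (27.1% and 29.1% of all tested genes). The median log2 fold change was -0.65 over the 27 genes, 0.02 over the 11 SPRR genes, -1.57 over the 9 other envelope genes and -3.38 over the 3 transglutaminases.

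The null lines differed from each other. Over the 27 genes, 17 were higher in null 1 and 10 in null 3. By role, 10 of 11 SPRR genes were higher in null 1, whereas all 4 tested genes of corneodesmosin and kallikreins and 2 of 3 transglutaminases were higher in null 3. Null 1 over null 3 was 21.8 for Sprr2e, 13.8 for Sprr2d, 10.6 for Sprr1b and 10.1 for Sprr2k, and null 3 over null 1 was 5.25 for Tgm1, 4.62 for Krtdap and 2.84 for Klk8. Summed over the 10 listed SPRR2 rows, which leaves out Sprr2j-ps and does not remove the sharing of reads with copies outside the sum such as Sprr2a3, null 1 had 283 CPM and null 3 had 35.2 CPM. The same sum was 14.1, 2.80 and 7.82 CPM in mutant 1, 2 and 3 and 319.7 and 278 CPM in WT 1 and WT 2. Null 1 was thus at a WT level for the summed SPRR2 genes and null 3 between the mutant and WT lines. The sum hides opposite shifts in null 1. There Sprr2f, Sprr2h and Sprr2k were below both WT lines, and Sprr2b, Sprr2d, Sprr2e, Sprr2g and Sprr2i were above both. Null 3 is the line with the muscle and fibroblast marker sums noted above, and the part of that difference was not tested. Without null 1 the fitted direction in null against WT turned to lower for Sprr1a, Sprr1b, Sprr2e, Sprr2g and Sprr2i, and none was called with or without it.

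Mutant lines also differed among themselves. Mutant 1 had the highest level of the 3 in 15 of the 27 genes. In 14 of these it was over 4-fold above the lowest mutant line or that line had 0 counts. The lowest line had 0 counts, so that no ratio could be formed, for Sprr2b, Sprr2e, Tgm5 and Cnfn. Mutant 1 is also highest in summed fibroblast markers, whose part was not tested.

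The third comparison asks whether the missense lines differ from the p53 -/- lines, which share the 4NQO label. None of the 27 genes was called by edgeR, nor was any other tested gene (0%). Even the targeted gene Trp53, higher in every mutant library, missed the threshold (log2 fold change 5.06, SE 0.373, edgeR adjusted p = 0.0555). The absence of calls thus does not show that the groups are alike. At an unadjusted p under 0.05, 14 of the 27 genes were lower in mutant lines (51.9%, against 7.63% of all tested genes) and 1, Ecm1, was higher (6.35% of all tested genes). Of the 14, 7 (Sprr2b, Sprr2d, Sprr2e, Sprr2f, Sprr2g, Tgm5 and Klk7) did not pass the filter on mutant lines, so their low mutant level was built in and the share is a description only. The 14 were Sprr1a, Sprr2b, Sprr2d, Sprr2e, Sprr2f, Sprr2g, Sprr2h, Sprr2i, Sprr3, Tgm5, Ppl, Evpl, Scel and Klk7. DESeq2 called 10 lower (Sprr2d, Sprr2e, Sprr2f, Sprr2g, Sprr2i, Sprr3, Tgm5, Ppl, Evpl and Scel) and 1 higher, Ecm1, where it called 3.04% and 1.65% of all genes. In 16 genes every mutant library was below both null libraries (15.1% of all tested genes), and in 1, Ecm1, every one was above (16%). The median log2 fold change was -1.96 over the 27 genes and 0.02 over all tested genes.

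Sprr2f had the smallest p of the set in mutant against null (log2 fold change -8.28, SE 0.714, edgeR adjusted p = 0.0764), and the value of Ppl was -1.96 (SE 0.299, adjusted p = 0.258). Without null 3, edgeR called 4 genes lower (Sprr2d, Sprr2f, Sprr2g and Ppl), against 0.098% of all genes, and without null 1 it called 0 of the set and 0% of all genes lower. Besides Ecm1, 5 genes had higher means in mutant than in null lines, with overlapping libraries and no call: Sprr2k, Ivl, Krtdap, Cdsn and Klk10 (log2 values 1.88, 0.63, 1.38, 0.57 and 0.43). The comparisons of mutant and of null with WT use the same 2 WT libraries, so their values for a gene are given side by side and were not correlated.

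**Figure D5:**
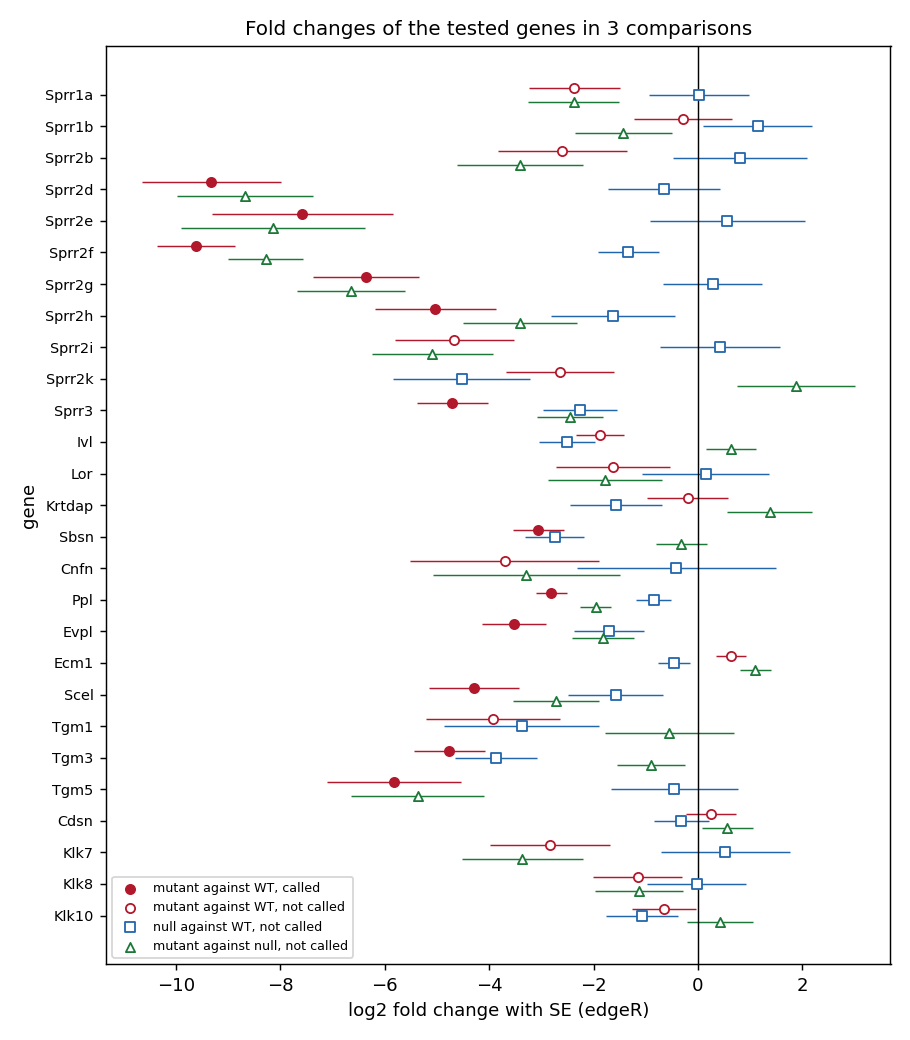
Log2 fold changes (horizontal axis) with standard errors of the 27 tested genes in 3 comparisons, from edgeR. Filled symbols mark the 12 genes called in mutant against WT; open symbols mark values that edgeR did not call, which includes all of null against WT and mutant against null.

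Other genes of the same pathway were read from lists chosen with earlier results of these data known, so the shares called are descriptions and not support. Of the called genes named below, Pglyrp4, Prss27 and Krt23 reached the filter cutoff of 0.298 CPM in at most 1 mutant line. A low mutant level was thus built into their being tested. Of 32 listed genes of the epidermal differentiation complex outside the set, mostly late cornified envelope (LCE) genes, 16 were tested and 1 fell in mutant against WT (6.25%, near the 4.13% of all tested genes called lower). It was Pglyrp4, a peptidoglycan recognition protein, at 0.0610, 0 and 0.0459 CPM in mutant, 2.31 and 0.494 CPM in null and 1.73 and 2.11 CPM in WT lines. Of 18 genes for barrier lipids and late cornification enzymes, 4 fell and 0 rose (22.2% lower, against 4.13% of all tested genes lower and 3.3% higher). Cers3, the ceramide synthase of very long chains, was at 49.4, 32.1 and 23.0 CPM in mutant, 75.5 and 48.6 CPM in null and 168 and 162 CPM in WT lines (log2 fold change -2.24, SE 0.340, adjusted p = 0.0246), and Nipal4 and Ppard fell by 1.76 and 1.09 on the log2 scale.

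Of 24 further proteases and inhibitors, 16 were tested, 5 fell and 0 rose in mutant against WT (31.2% lower, against 4.13% of all tested genes). The trypsin-like proteases Prss27 and Prss8 were at 0.0918 to 0.346 CPM and 2.25 to 4.27 CPM in mutant lines, against 8.98 and 9.99 CPM and 35.7 and 22.4 CPM in WT lines. In null lines Prss27 stood at 1.07 and 0.304 CPM and Prss8 at 28.03 and 11.997 CPM. St14, matriptase, the third named by the rule, was at 53.1, 38.6 and 33.7 CPM in mutant, 245 and 127 CPM in null and 315 and 181 CPM in WT lines. Of 10 tested suprabasal and stress keratins, 3 fell and 0 rose (30% lower, against the same 4.13%): Krt23, Krt16 and Krt13. Krt13, the suprabasal keratin of the esophagus, was at 8.71, 1.45 and 2.96 CPM in mutant, 14.9 and 47.5 CPM in null and 85.9 and 173 CPM in WT lines.

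Among 24 tested regulators of squamous differentiation, 8 fell (33.3%, against 4.13% of all tested genes) and 1, Maf, rose (4.17%, near the 3.3% of all tested genes). Grhl1, a grainyhead factor, was at 9.56, 9.90 and 13.6 CPM in mutant, 43.9 and 20.5 CPM in null and 58.2 and 66.3 CPM in WT lines, and its relative Grhl2 at 53.9 to 70.3 CPM in mutant, 115 and 83.0 CPM in null and 142 and 151 CPM in WT lines. Prdm1, the repressor Blimp1, was at 1.71 to 5.53 CPM in mutant, 7.03 and 7.25 CPM in null and 20.5 and 28.8 CPM in WT lines. None of the genes of these 5 lists was called in null against WT or in mutant against null by edgeR. Median log2 fold changes of the lists in mutant against WT were -2.24 for the differentiation complex, -2.0 for lipids and late enzymes, -2.34 for proteases and inhibitors, -2.70 for keratins and -0.79 for regulators, beside 0.08 over all tested genes.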

How the data were processed

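RNA from 7 mouse esophageal epithelial cultures was made into libraries with a stranded mRNA kit, per the labels' protocols. The authors deposited raw read counts per gene. STAR 2.5.1b and mm9 are named in the submitters' processing notes; the counting tool, strand setting and annotation were not given in the sources used here. The genes and lists were chosen with earlier results of these data known. Genes were filtered by edgeR's filterByExpr (minimum count 10), leaving 13768, scaled by TMM and fitted in one edgeR 4.0.16 quasi-likelihood model over all 7 libraries (R 4.3.3, Benjamini-Hochberg threshold 0.05). Biological variation was 0.485 (common). Libraries held 12751118 to 47000225 counts, and intervals and floors (3 counts, 95%) cover counting error only. Alternatives were DESeq2 1.42.0, relative log expression, no filter, the newer quasi-likelihood form, a replicate block and leaving out each line. The code was tested on simulated data with 200 changed genes. All genes of the set were accounted for. Values per library are given for those called or among the 3 highest of a role, others were added after their values were seen, and up to 3 genes were named per other list. The table holds 27 date-like names and 92 spike-in names with 0 counts.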

Additional observations from a re-analysis of the deposited data

Results flagged for a closer look

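Ecm1 was flagged because every mutant library was above, and both null libraries below, the WT libraries. The difference between mutant and null lines was tested in the edgeR fit over all genes, at 1.10 on the log2 scale (SE 0.292, adjusted p = 0.278), and was not called there. DESeq2 called it (adjusted p = 0.0082). The levels were 411, 710.4 and 523 CPM in mutant, 299.7 and 212 CPM in null and 310.1 and 392 CPM in WT lines.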

How the results depend on the processing

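In mutant against WT, where 12 genes of the set and 1022 of all genes were called, DESeq2 called 17 of the set and 3198 of all genes (1715 higher and 1483 lower). Leaving out 1 line gave 0 to 14 genes of the set and 0 to 1420 of all genes. In null against WT, where 0 and 19 were called, DESeq2 called 5 and 1549, no filter gave 77 of all genes, the newer quasi-likelihood form 55, and leaving out 1 line 0 to 0 of the set and 0 to 55 of all genes. In mutant against null, where 0 and 0 were called, DESeq2 called 11 and 604, no filter 1 and 2, relative log expression and the newer form 1 gene each, and leaving out 1 line 0 to 4 and 0 to 22. With replicate number as a block, 0 genes of the set and 0 of all genes were called in each comparison. Among same-numbered libraries, correlations of the deviations from group means ran from -0.405 to 0.138. Groups of 2 lines give deviations that mirror each other, so these values cannot decide whether the numbers pair the lines.

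Some fold changes that edgeR did not call turned sign. Over the fits that each leave out 1 line, the log2 values in mutant against WT ran from -0.59 to 0.095 for Krtdap, -0.22 to 0.59 for Cdsn and -0.95 to 0.069 for Sprr1b. In null against WT they ran from -1.84 to 1.11 for Sprr2g, -1.94 to 1.27 for Sprr2i, -0.59 to 0.016 for Cdsn, -0.96 to 0.54 for Klk8, -0.18 to 0.45 for Lor, -0.84 to 0.55 for Sprr1a, -1.39 to 2.02 for Sprr1b, -2.95 to 1.5 for Sprr2e, -3.54 to 0.25 for Sprr2d and -2.29 to 0.33 for Tgm5. In mutant against null they ran from -2.29 to 1.11 for Sprr1b, -0.83 to 0.52 for Sbsn and -2.83 to 1.09 for Tgm1. With the block, null against WT gave -0.14 for Sprr2g, -0.53 for Sprr2i, 0.19 for Cdsn and 0.37 for Klk8, and mutant against null gave -0.12 for Klk10. The cause was not tested.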

Other observations

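Klk11, chosen after its values were seen, was below the filter and had 195 counts in mutant lines, 193 of them in mutant 1 (3.93 CPM), against 7 in null and 6 in WT lines.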
